A study of Mus musculus with 108 samples.

Results

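The guanylate-binding proteins (GBPs) Gbp2, Gbp3, Gbp4, Gbp5, Gbp6, Gbp7 and Gbp9 and the immunity-related GTPases (IRGs) Irgm1, Igtp and Iigp1 were followed through myeloid cells of a mouse model of lung-to-brain metastasis. These 10 genes were chosen by symbol from the 49585 genes of the count table, and all 10 were found in it. RNA was sequenced from sorted cells of 28 groups, all from Balb/C athymic nude mice (CAnN.Cg-Foxn1nu/Crl), whose Foxn1 mutation leaves them without a working thymus and with few mature T cells. From brain metastases came microglia, the resident macrophages of the brain, bone marrow-derived macrophages (BMDM), inflammatory monocytes and granulocytes. Whole-brain radiotherapy had been given as 5 fractions of 2 Gy (5x2 Gy), with cells taken on day 3 (4 libraries per population), day 5 (4) and day 10 (3), or as 1 fraction of 10 Gy (1x10 Gy) with cells taken on day 3 (3). Unirradiated tumours were sampled at a small stage (5 libraries of microglia, 5 of BMDM, 4 of monocytes, 4 of granulocytes) and at a large stage (5 of each), while irradiated tumours carry no stage. Tumour-free mice gave microglia (4 libraries) and blood monocytes (4). A further 6 libraries of tumour-free microglia, 3 for each day, have 5x2 and day 3 or day 5 in their titles but "none" in the radiotherapy field, so they form separate groups here, called titled 5x2. The labels name neither the tumour cell line, nor the event from which days are counted, nor the number of mice behind each library, so p-values measure only the spread between these libraries, which may be technical.

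GBPs and IRGs are GTPases that cells make in response to interferons. They gather on the membranes of vacuoles that hold intracellular parasites and bacteria, where regulatory IRGs such as Irgm1 and Igtp (also called Irgm3) keep effector IRGs such as Iigp1 (Irga6) off the cell's own membranes. Interferon gamma acts through the receptor chains Ifngr1 and Ifngr2 and induces Irf1 through GAS elements, while type I interferons act on interferon-stimulated response elements (ISREs). Macrophages, microglia among them, are known to make these GTPases strongly when exposed to interferon.

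RefSeq promoters on GRCm38.p6 were used for 6 of the 10 genes, in 7 windows of 300 bases, 250 before and 50 after each start site. All 6 genes had the ISRE core, the letters GAAA, any 2 bases and GAAA again, on either strand in a window, against 3.44% of 32851 promoters of this length and 3.99% of 27025 genes. The GAS letters TTCNNNGAA, which read the same on both strands, were in the windows of Gbp5, Gbp7 and Igtp, against 8.30% of promoters and 9.55% of genes. The 180 bases before the start site are shown for these 6 genes. Capitals mark the matches of both motifs, on the strand of the gene, 5′ to 3′. The ISRE core lies on the opposite strand in Gbp2, Gbp3, Gbp5 and Gbp7 and on the printed strand in Irgm1 and Igtp. No ISRE match shared a base with a GAS match. A match is a description of letters, not evidence of a working site.
Gbp2: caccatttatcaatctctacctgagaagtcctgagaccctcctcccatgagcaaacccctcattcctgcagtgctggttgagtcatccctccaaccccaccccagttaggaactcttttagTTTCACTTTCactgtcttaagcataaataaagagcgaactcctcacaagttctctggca
Gbp3: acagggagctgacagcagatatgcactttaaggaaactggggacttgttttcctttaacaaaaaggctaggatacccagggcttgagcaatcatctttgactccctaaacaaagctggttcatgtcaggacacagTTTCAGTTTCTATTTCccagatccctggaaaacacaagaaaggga
Gbp5: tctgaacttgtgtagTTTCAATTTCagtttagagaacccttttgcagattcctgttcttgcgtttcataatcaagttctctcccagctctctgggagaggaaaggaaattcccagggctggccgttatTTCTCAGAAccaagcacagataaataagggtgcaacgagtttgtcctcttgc
Gbp7: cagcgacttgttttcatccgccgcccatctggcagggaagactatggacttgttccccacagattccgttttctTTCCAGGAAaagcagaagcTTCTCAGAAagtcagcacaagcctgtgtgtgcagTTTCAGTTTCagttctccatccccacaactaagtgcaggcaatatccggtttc
Irgm1: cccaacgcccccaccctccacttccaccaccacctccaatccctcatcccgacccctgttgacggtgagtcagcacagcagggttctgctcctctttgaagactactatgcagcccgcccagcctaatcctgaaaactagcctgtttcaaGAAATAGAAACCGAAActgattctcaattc
Igtp: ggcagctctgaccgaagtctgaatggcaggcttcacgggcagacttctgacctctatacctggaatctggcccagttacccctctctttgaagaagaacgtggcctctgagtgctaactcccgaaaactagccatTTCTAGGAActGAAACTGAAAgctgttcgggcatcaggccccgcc

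These sequences lie at chr3:142620483-142620662 (Gbp2), chr3:142559864-142560043 (Gbp3), chr3:142496754-142496933 (Gbp5), chr3:142530156-142530335 (Gbp7) and chr11:58199376-58199555 (Igtp), all on the plus strand, and at chr11:48871421-48871600 on the minus strand (Irgm1). Counting back from the start site, the first base of an ISRE match stood at -59 in Gbp2, -45 and -39 in Gbp3, -165 in Gbp5, -53 in Gbp7, -30 and -24 in Irgm1, and -34 in Igtp. GAS matches began at -245 and -52 in Gbp5, at -106 and -87 in Gbp7, and at -45 in Igtp. The window of a second Gbp3 start site held neither motif. Gbp4, Gbp6, Gbp9 and Iigp1 were not among the promoters used here.

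**Figure D1:**
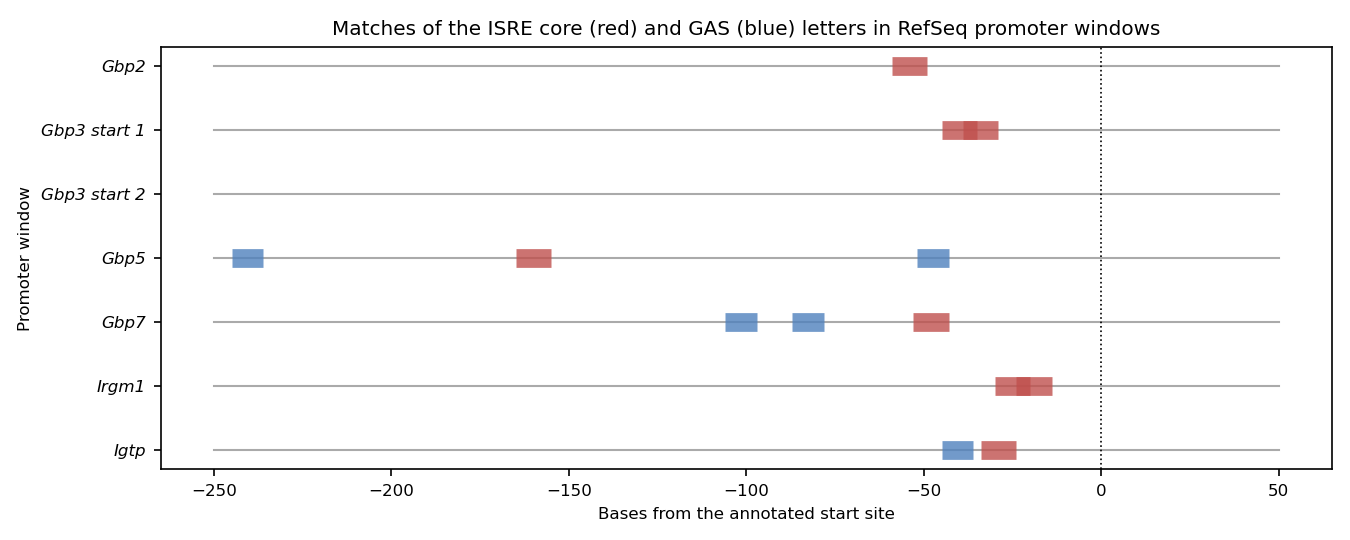
Position of ISRE core (red) and GAS (blue) letter matches in 7 RefSeq promoter windows of 6 genes; the x axis is the distance in bases from the annotated start site (dotted line). ISRE matches of Gbp2, Gbp3, Gbp7, Irgm1 and Igtp begin between -59 and -24, while that of Gbp5 begins at -165.

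On GRCm38 the GBP genes form 2 clusters. Gbp5 (chr3:142493978-142522344), Gbp7 (chr3:142530342-142550149), Gbp3 (chr3:142560026-142573209) and Gbp2 (chr3:142620602-142638008) follow each other on the plus strand of chromosome 3. Gbp9 (chr5:105077630-105139539), Gbp4 (chr5:105115767-105139586) and Gbp6 (chr5:105270702-105293698) lie on the minus strand of chromosome 5. Irgm1 (chr11:48861968-48871683, minus strand) and Igtp (chr11:58199556-58207591, plus strand) are on chromosome 11. The members are paralogs and some share annotated exon sequence with other genes. The shared part was 29.0% of the exon length of Gbp6 (with Gm43302), 11.3% of Gbp7 (with Gm43802) and 8.01% of Igtp (with Irgm2), and it was 1.16% or less in the other 7. How reads that fit more than 1 of these genes were assigned, and whether strand was used, is not stated in the labels, so levels of single paralogs are uncertain to that extent.

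Library totals ran from 985423 to 18642747 counts, with a median of 11362593.5. By totals under 3000000, over 30000 genes detected, or over 1% of a population's abundant genes at 0, 12 libraries were set down as doubtful, and results that rest on them are given with and without them. They include 2 of the 4 tumour-free microglia, 2 of the 5 small-stage microglia, 1 of the 4 small-stage granulocytes and 3 of the 4 blood monocytes. Microglia and granulocytes carried the markers of their labels. The summed level of 8 microglial markers had a median of 11963 CPM in small-stage microglia and 12848 CPM in tumour-free microglia, against 1679.8 CPM in small-stage monocytes. The sum of 7 granulocyte markers had a median of 23976 CPM in small-stage granulocytes and 564 CPM in small-stage monocytes. The other labels are less clear-cut in the markers. In BMDM the microglial sum ran over 1815 to 5004 CPM at the small and 1526 to 7914 CPM at the large stage, beside a sum of 7 monocyte and macrophage markers of 1472 to 2619 and 542 to 2513 CPM. Blood monocytes had 1191 to 8458 CPM of these 7, beside 293 to 5019 CPM of 9 markers of natural killer (NK) cells.

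Transcripts of all 10 genes were present in tumour microglia, BMDM and monocytes, and granulocytes had a different make-up. Levels are CPM, counts scaled to the size of each library with TMM factors over all libraries. Mean Gbp2 was lowest in tumour-free microglia, at 6.20 ± 3.34 CPM (SD, n = 4), and highest in 5x2 Gy day 5 granulocytes, at 450.0 ± 214 CPM (SD, n = 4). Irgm1 spanned 74.3 ± 17.04 CPM in tumour-free microglia titled 5x2 day 3 (SD, n = 3) to 875 ± 575 CPM in the same granulocytes. Igtp spanned 33.2 ± 28.5 CPM in tumour-free microglia to 565 ± 307 CPM in small-stage granulocytes (SD, n = 4 each). Gbp5 and Gbp7 likewise had their lowest mean in tumour-free microglia, at 5.57 ± 5.09 and 57.7 ± 36.0 CPM. Their highest means were in granulocytes, at 117 ± 66.8 CPM for Gbp5 on day 10 after 5x2 Gy and 361 ± 62.2 CPM for Gbp7 after 1x10 Gy (SD, n = 3 each).

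The other 5 genes had their highest means in monocytes. Gbp6 reached 28.7 ± 13.3 CPM and Iigp1 31.7 ± 27.8 CPM in small-stage monocytes (SD, n = 4). Gbp4 reached 29.7 ± 16.6 CPM and Gbp9 55.3 ± 19.3 CPM in 1x10 Gy monocytes (SD, n = 3), and Gbp3 176 ± 64.4 CPM in 5x2 Gy day 5 monocytes (SD, n = 4). Gbp4, Gbp6, Gbp9 and Iigp1 had their lowest means in irradiated granulocytes: Gbp6 had no count in any of the 4 libraries of 5x2 Gy day 5, and Iigp1 stood at 0.129 ± 0.126 CPM after 1x10 Gy. Between neighbours in the order of the 28 group means, the ranges of mean ± SD overlapped for all 27 pairs of 8 genes and for 26 of the 27 pairs of Gbp2 and Irgm1. The granulocyte levels depend on the scaling. With the factors of DESeq2's method (RLE) the small-stage granulocytes became the highest group for Gbp2, Gbp5, Gbp7 and Irgm1, and mean Igtp there was 2602 CPM. The highest group also moved to blood monocytes for Gbp4 and to 5x2 Gy day 10 microglia for Iigp1, and the lowest group of Gbp7 to small-stage BMDM. The granulocyte mean of Igtp by RLE rests on library 1, a doubtful library at 8957 CPM by RLE and 751 CPM by TMM. By RLE that library was also at 4599 CPM for Gbp2, 1013 for Gbp5, 5420 for Gbp7 and 6882 for Irgm1. The highest of the other small-stage granulocyte libraries was at 760, 129, 302 and 1302 CPM in the same order.

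**Figure D2:**
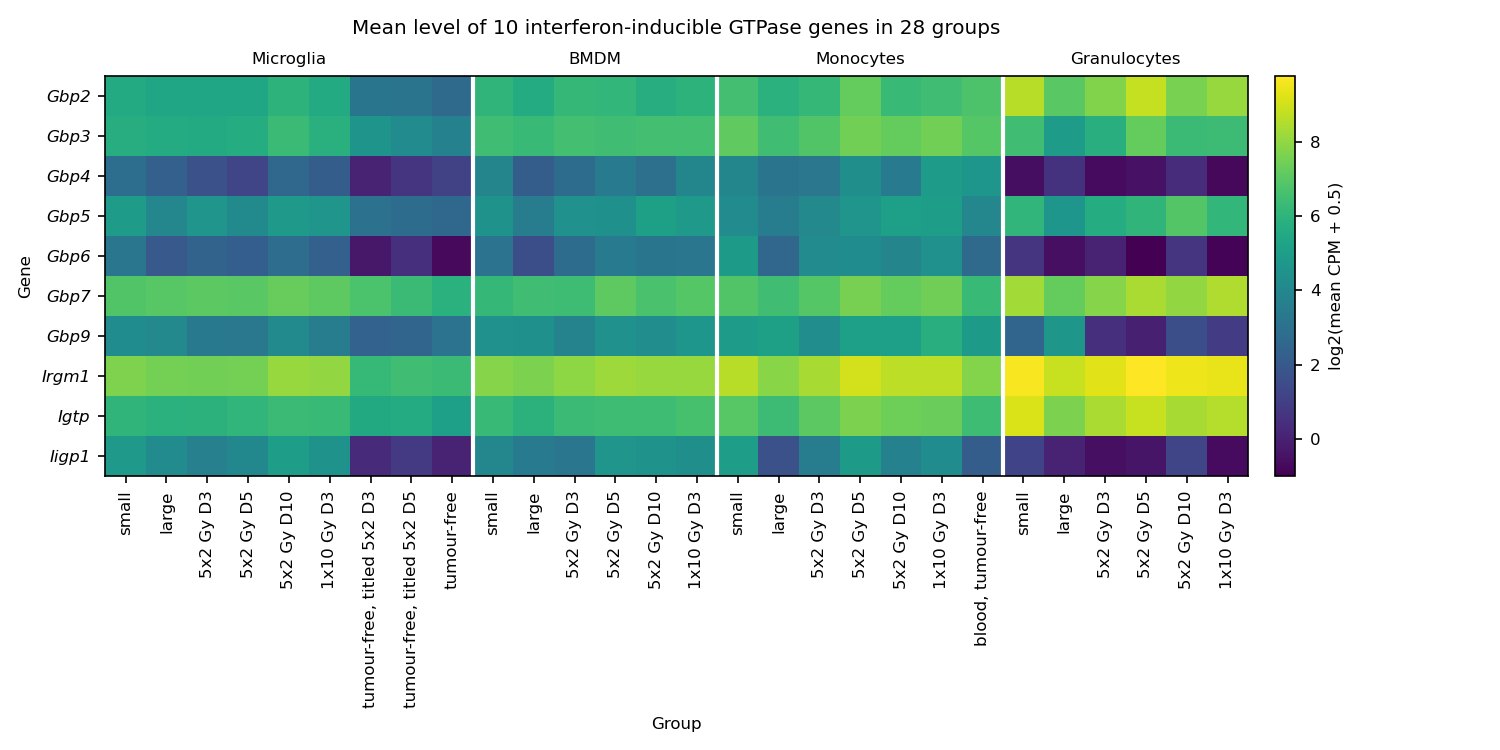
Mean level of the 10 genes (rows) in the 28 groups (columns), as log2(mean CPM + 0.5) by colour. Gbp2, Gbp5, Gbp7, Irgm1 and Igtp are brightest in the granulocyte columns other than the large stage. Gbp4, Gbp6, Gbp9 and Iigp1 are dark in most granulocyte columns, Gbp9 at the large stage being an exception at 25.6 ± 54.5 CPM (SD, n = 5), and most rows are also dark in the 3 tumour-free microglia groups.

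Per kilobase of exon, which allows genes to be compared, the regulatory IRGs led. Igtp had the highest mean CPM per kb in 16 of the 28 groups, Irgm1 in 11 and Gbp2 in 1, the blood monocytes. In small-stage microglia the highest were Irgm1 at 35.3 ± 5.31 and Igtp at 32.7 ± 5.17 CPM per kb (SD, n = 5), and the lowest was Gbp4 at 0.924 ± 0.331 CPM per kb. In small-stage granulocytes Igtp was at 279 ± 152 CPM per kb and Gbp2 at 156 ± 107.8 CPM per kb (SD, n = 4). In tumour-free microglia Igtp was at 16.4 ± 14.1 CPM per kb and Gbp6 at 0.0163 ± 0.0279 CPM per kb (SD, n = 4). With the same counts divided by the exon length that no other gene shares, Igtp led in 22 groups. This shortens Igtp from 2022 to 1860 bases and leaves Irgm1 at 5810. Igtp therefore rises by the divisor alone, as reads were not recounted, and the order of the 2 is not checked by it.

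In microglia of small-stage tumours 6 of the 10 genes were higher than in tumour-free microglia at an adjusted p under 0.05, and 0 were lower. Of the 19754 genes tested in this comparison, 15.4% were called in either direction and 7.55% were called higher. At the large stage 7 of the 10 were higher and 0 lower, where 31.9% of all genes were called and 11.7% were called higher. The median log2 fold change of the 10 was 1.97 at the small stage, beside -0.03 over all genes tested, and 1.30 at the large stage, beside -0.26. Both comparisons use the same 4 tumour-free libraries. In these bulk libraries, fewer cells of a type and less RNA per cell cannot be told apart. By RLE scaling 6 genes were called at each stage, with all-gene medians of -0.21 and -0.51, while the calls over all genes shifted to 1199 higher and 2333 lower at the small stage (1491 and 1544 by TMM) and to 1598 higher and 5217 lower at the large stage (2315 and 3994 by TMM). Tests are edgeR's quasi-likelihood test with Benjamini-Hochberg adjustment over all genes, and fold changes are on a log2 scale with their standard error.

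Gbp2, a prenylated GBP that acts on Toxoplasma vacuoles, was at 47.4, 38.2, 57.6, 38.9 and 55.2 CPM in small-stage and at 82.3, 24.8, 29.0, 22.4 and 38.7 CPM in the large-stage microglia, against 9.75, 5.17, 2.06 and 7.82 CPM in tumour-free microglia. Every tumour library was above every tumour-free one. The log2 fold change was 2.85 ± 0.44 at the small stage (edgeR adjusted p = 3.64e-05) and 2.54 ± 0.43 at the large stage (adjusted p = 0.000102). Gbp3, which is recruited to the same vacuoles, was at 40.4, 49.6, 74.3, 45.8 and 47.6 CPM in small-stage and at 74.9, 41.0, 47.7, 39.0 and 45.8 CPM in the large-stage microglia, against 22.8, 9.53, 3.43 and 15.7 CPM in tumour-free microglia. These ranges did not overlap either. The log2 fold change was 1.94 ± 0.32 (edgeR adjusted p = 9.23e-05) at the small stage and 1.85 ± 0.32 (adjusted p = 0.000124) at the large stage.

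Gbp6 and Iigp1 were close to undetected in tumour-free microglia. Gbp6, another GBP of the Toxoplasma vacuole, was at 13.7, 3.18, 10.9, 8.21 and 8.34 CPM in small-stage and at 5.32, 2.84, 3.09, 1.70 and 4.69 CPM in the large-stage microglia, against 0, 0.344, 0 and 0.0430 CPM in tumour-free microglia, where the counts were 0, 3, 0 and 1. Iigp1, an effector IRG that coats vacuoles, was at 26.3, 13.8, 49.2, 32.1 and 19.0 CPM in small-stage and at 46.8, 9.62, 12.1, 6.89 and 15.01 CPM in the large-stage microglia, against 0.987, 0.344, 0 and 0.864 CPM in tumour-free microglia, from 8, 3, 0 and 20 counts. For both genes all tumour libraries lay above all tumour-free ones. The log2 fold change of Gbp6 was 6.27 ± 0.97 at the small stage (95% interval 4.28 to 8.25, edgeR adjusted p = 4.53e-05) and 4.88 ± 0.95 at the large stage (adjusted p = 0.000482). That of Iigp1 was 5.37 ± 0.96 at the small stage (95% interval 3.40 to 7.33, edgeR adjusted p = 0.000281) and 4.68 ± 0.94 at the large stage (adjusted p = 0.000697). With so few counts in the tumour-free libraries the sizes of these folds are uncertain: without tumour-free library 2, which holds 3 of the 4 Gbp6 counts, the fitted Gbp6 values were 7.91 and 6.53.

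Irgm1, a regulator of the effector IRGs, was at 241, 162, 228, 199 and 196 CPM in small-stage and at 240.4, 165, 170.3, 117 and 223 CPM in the large-stage microglia, against 101, 52.9, 60.3 and 106 CPM in tumour-free microglia. The groups did not overlap, and the log2 fold change was 1.37 ± 0.25 (edgeR adjusted p = 0.000348) at the small stage and 1.16 ± 0.25 (adjusted p = 0.00126) at the large stage. Gbp5, which promotes assembly of the NLRP3 inflammasome, was at 18.4, 55.3, 46.1, 20.8 and 10.6 CPM in small-stage and at 19.3, 18.7, 19.9, 9.78 and 9.11 CPM in the large-stage microglia, against 12.6, 3.44, 0.685 and 5.57 CPM in tumour-free microglia. Tumour-free library 1 lay within the range of the tumour libraries. The log2 fold change of Gbp5 was 2.33 ± 0.50 at the small stage (edgeR adjusted p = 0.00189) and 1.33 ± 0.49 at the large stage (adjusted p = 0.0364).

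Gbp7, which takes part in the defence of mouse macrophages against intracellular bacteria, averaged 113 ± 29.0 CPM in small-stage and 127 ± 23.8 CPM in large-stage microglia (SD, n = 5 each), against 57.7 ± 36.0 CPM in tumour-free microglia (SD, n = 4). It was called higher at the large stage, with a log2 fold change of 1.08 ± 0.37 (edgeR adjusted p = 0.0279), and not at the small stage, with 0.96 ± 0.37 (adjusted p = 0.0775). Between the stages themselves Gbp7 differed by 0.12 ± 0.34 (adjusted p = 0.973). Igtp, the other regulatory IRG, averaged 66.1 ± 10.5 and 58.2 ± 15.8 CPM in small- and large-stage microglia, against 33.2 ± 28.5 CPM in tumour-free microglia. Gbp4 averaged 6.92 ± 2.48 and 4.39 ± 3.29 CPM, against 1.61 ± 1.26 CPM, and Gbp9 18.6 ± 3.62 and 16.5 ± 16.4 CPM, against 8.04 ± 4.94 CPM, in the same groups. These 3 did not pass the test at either stage. Their 95% intervals of the log2 fold change at the small stage were 0.18 to 1.76 for Igtp, 0.23 to 3.76 for Gbp4 and 0.22 to 2.14 for Gbp9.

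**Figure D3:**
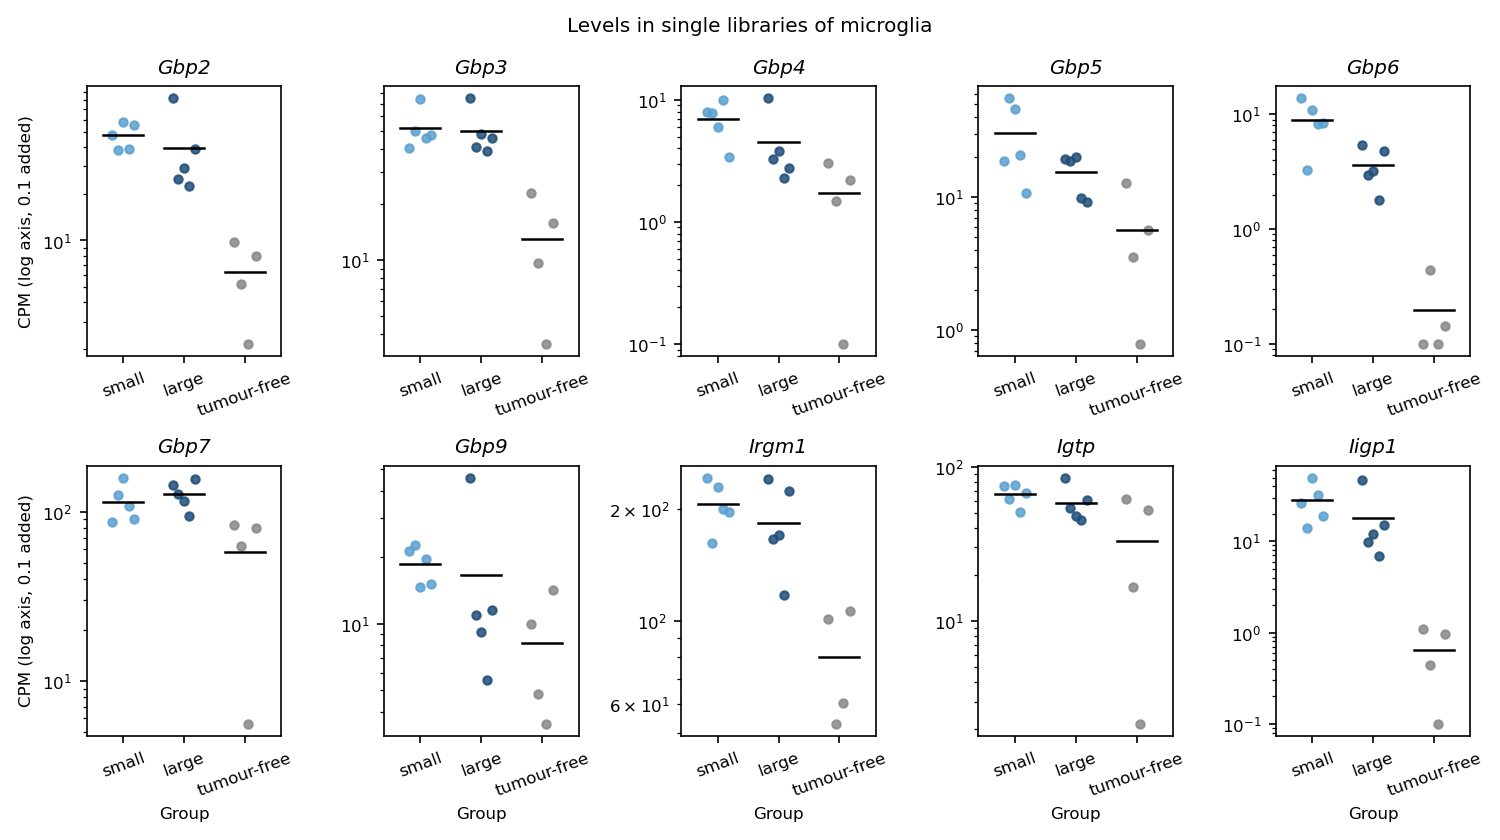
CPM of each gene in single libraries (points, log axis, 0.1 added) of small-stage (n = 5), large-stage (n = 5) and tumour-free (n = 4) microglia. Gbp2, Gbp3, Gbp6, Iigp1, Irgm1 and Gbp7 have all tumour libraries above all tumour-free ones, while Gbp5 and Igtp overlap.

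The CPM ranges of small-stage and tumour-free microglia did not overlap for 8 of the 10 genes, against 7.61% of all genes tested, and those of large-stage and tumour-free microglia for 6, against 12.2%. Tumour-free library 3, a doubtful library, was the lowest or joint lowest of the 4 for 9 of the genes. Without the doubtful libraries, which leaves 2 tumour-free libraries, 5 genes were called at the small stage and 4 at the large stage. Irgm1 was lost at both stages (0.88, edgeR adjusted p = 0.0828, and 0.79, adjusted p = 0.0608), and at the large stage Gbp5 (0.74, adjusted p = 0.361) and Gbp7 (0.61, adjusted p = 0.192) were lost too. Fitting the 2 groups alone ended the call of Gbp5 at both stages (adjusted p = 0.115 and 0.228) and of Gbp7 at the large stage. Leaving out tumour-free library 1 moved Gbp5 to 2.999 at the small stage and 1.98 at the large stage, and leaving out large-stage library 1 moved Iigp1 to 3.95. Without the doubtful libraries Gbp6 was at 7.54 and 6.46. The large-stage call of Gbp5 was also lost when any of 6 of the 9 libraries was left out (tumour-free 2, 3 or 4, large-stage 1, 2 or 3; adjusted p up to 0.116), and that of Gbp7 without tumour-free 3 or large-stage 1 or 5 (adjusted p up to 0.0566). Calls were gained without tumour-free library 1 for Igtp (1.41 at the small and 1.17 at the large stage) and for Gbp7 at the small stage (1.17). Without tumour-free library 4 they were gained for Gbp9 (1.57 at the small and 1.33 at the large stage) and for Igtp at the small stage (1.23).

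Markers of other cells also varied over these groups. All 7 monocyte markers had counts in each group, and their sum ran over 35.1 to 318 CPM in small-stage, 46.0 to 1579 CPM in large-stage and 10.9 to 155 CPM in tumour-free microglia. The sum of 8 dendritic cell markers ran over 64.5 to 201, 92.3 to 178 and 39.7 to 57.6 CPM in the same order. The sum of 7 astrocyte markers ran over 127 to 322 CPM in small-stage and 154 to 274 CPM in the large-stage microglia, against 858 to 1239 CPM in tumour-free microglia. Granulocyte markers summed to 736 to 1333, 659.6 to 1080.4 and 427 to 772 CPM, with Ly6g at 0 in all tumour-free libraries. Large-stage library 3 had the highest monocyte sum, 1579 CPM, and large-stage library 1, at 256 CPM, was the highest of its group for 8 of the 10 genes. The part of these cells in the results was not tested.

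Other interferon genes were called in the same 2 comparisons, with the doubtful libraries included throughout. Over all genes tested, 7.55% were called higher at the small stage and 11.7% at the large stage. Of 26 targets of type I interferon, 21 were higher at the small stage and 20 at the large stage and 0 were lower, with median log2 fold changes of 2.30 and 1.99. Ifit2, an inhibitor of viral replication, was at 255 ± 36.9 CPM in small-stage microglia (SD, n = 5), against 14.7 ± 8.13 CPM in tumour-free microglia (SD, n = 4), a log2 fold change of 4.08 ± 0.39 (edgeR adjusted p = 3.16e-08). Zbp1, a sensor of Z-form nucleic acid, was at 86.9 ± 28.8 CPM, against 4.13 ± 1.04 CPM. Of 23 tested targets of interferon gamma outside the family, 8 were higher and 0 lower at the small stage, and 8 higher and 1 lower at the large stage. They include the chemokine Cxcl10 (log2 fold change 3.97 ± 0.51 at the small stage), the peptide transporter Tap1 (1.36 ± 0.24) and the class I molecule H2-D1 (2.04 ± 0.38).

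Of 7 interferon receptors and kinases, 4 were higher at each stage: Ifnar1, Ifngr2, Jak1 and Jak2. Among all genes 7.55% were called higher at the small stage and 11.7% at the large stage. Ifngr2, a chain of the interferon gamma receptor, was at 246 ± 40.1 CPM in small-stage microglia (SD, n = 5), against 171 ± 28.8 CPM in tumour-free microglia (SD, n = 4), a log2 fold change of 0.53 ± 0.15 (edgeR adjusted p = 0.0179). Of 12 transcription factors, 4 were higher and 1 lower at the small stage, and 6 higher and 1 lower at the large stage. Irf7, the master regulator of type I interferon, had a log2 fold change of 4.18 ± 0.45 at the small stage, Nlrc5, the activator of class I genes, 2.997 ± 0.48 and Irf1 1.32 ± 0.33. Irf8, a factor of macrophage identity, had 0.41 at the small stage (edgeR adjusted p = 0.11) and passed the test at the large stage with 0.45 (adjusted p = 0.0487). Of 7 feedback inhibitors 4 were higher at each stage, among them Isg15 (2.88 ± 0.40 at the small stage) and Usp18 (2.53 ± 0.40).

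Of the 9 interferon genes listed, Ifnb1 was the 1 with enough counts to be tested, at 7.57 ± 3.55 CPM in small-stage and 9.47 ± 16.97 CPM in the large-stage microglia, against 0.486 ± 0.612 CPM in tumour-free microglia (log2 fold change 3.83 ± 1.17 and 4.09 ± 1.182, edgeR adjusted p = 0.0251 and 0.0105). Ifng had a count in 21 libraries of the series and none in 16 of the 28 groups. Its highest level was 17.2 CPM in a blood monocyte library, and it was at 0.148 ± 0.133 CPM in small-stage microglia, 0 in all large-stage microglia and 0.0574 ± 0.115 CPM in tumour-free microglia. Of 10 inflammasome genes, 3 were higher at the small stage and 4 at the large stage and 0 were lower. Over all genes 7.55% were called higher at the small stage and 11.7% at the large stage. Nlrp3, the sensor that Gbp5 is known to help, had a log2 fold change of 2.72 ± 0.49 at the small stage, the cytokine Il1b 3.52 ± 0.45 and Casp4 1.96 ± 0.39. Of 10 genes of the autophagy conjugation machinery, which places IRGs and GBPs on vacuoles, 2 were higher at the small stage and 5 at the large stage. They include Map1lc3b, with 0.60 ± 0.18 and 0.81 ± 0.18, and Gabarap, with 0.60 ± 0.20 and 0.93 ± 0.21 at the small and the large stage.

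Of 21 further GBP and IRG genes and relatives, 15 had enough counts to be tested in microglia. Of these, 6 were higher at the small stage and 4 at the large stage, with 0 lower. Among all genes 7.55% and 11.7% were called higher at these stages. The effector IRGs Tgtp2 and Tgtp1, close copies whose reads cannot be assigned with certainty, were at 10.8 ± 3.33 and 11.7 ± 8.35 CPM in small-stage microglia, against 0.299 ± 0.286 and 0.842 ± 0.608 CPM in tumour-free microglia. Their log2 fold changes were 4.90 ± 0.70 (edgeR adjusted p = 1.62e-05) and 3.61 ± 1.06 (adjusted p = 0.0193). Gbp2b, whose profile over the 28 groups was the most like that of Gbp5, ran over 0.241 to 46.4 CPM in small-stage microglia and 0.0850 to 28.4 CPM in the large-stage microglia, against 0 to 0.803 CPM in tumour-free microglia.

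Tumour-free microglia titled 5x2 were set against the other tumour-free microglia. On day 3, 0 of the 10 genes passed the test (1.91% of all genes did) and 1 had an unadjusted p under 0.05 (25.5% of all genes), with a median log2 fold change of 0.34 beside -0.12 over all genes. On day 5, 0 passed (1.35% of all genes did) and 1 had an unadjusted p under 0.05 (23.5% of all genes), with a median of 0.30 beside -0.13. Gbp2 was at 9.62, 11.4 and 4.81 CPM on day 3 and at 5.85, 16.0 and 3.32 CPM on day 5, against 9.75, 5.17, 2.06 and 7.82 CPM in the other tumour-free microglia, and these groups overlap. The 95% interval of its log2 fold change was -0.61 to 1.26 on day 3 and -0.66 to 1.22 on day 5. Iigp1 on day 5 was the 1 member whose range did not overlap that of the other tumour-free microglia, as for 6.94% of all genes. Gbp6, with 0, 31 and 6 counts on day 5, had the smallest adjusted p, 0.092, which DESeq2's Wald test gave as 0.0454. It was the 1 gene of the 10 that DESeq2 called on day 5, and DESeq2 called 0 of the 10 on day 3. Without tumour-free library 2 the log2 fold change of Gbp6 on day 5 was 4.52 and it was called by edgeR (adjusted p = 0.0275), and without tumour-free library 1 Gbp3 was called on day 3 (1.09, adjusted p = 0.0415). By RLE scaling 0 of the 10 were called on either day, with 138 higher and 536 lower over all genes on day 3 (163 and 215 by TMM) and 114 higher and 148 lower on day 5 (157 and 109 by TMM). None of the 26 type I interferon targets passed the test on either day.

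In unirradiated tumours the family divided between granulocytes and monocytes. Of the 10 genes, 5 were higher in granulocytes than in monocytes and 4 were lower, where 50.8% of 17828 genes were called, 22.0% higher and 28.8% lower. The share of calls among all genes is high, so a call by itself says little of the family, and the median log2 fold change of the 10 was 0.11, beside -0.03 over all genes. The 2 sides each hold 9 libraries, from small and large stages weighted equally. The CPM ranges overlapped for all 10 genes, where 16.0% of all genes had ranges that did not overlap.

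Igtp had the smallest adjusted p. Its lowest, median and highest levels were 125, 246 and 828 CPM in granulocytes, against 54.5, 88.1 and 185 CPM in monocytes. Its log2 fold change was 1.87 ± 0.25 (edgeR adjusted p = 7.96e-08). Gbp2 had 40.1, 142 and 759.9 CPM in granulocytes as lowest, median and highest, against 19.2, 72.2 and 129 CPM in monocytes, and a log2 fold change of 1.77 ± 0.38 (edgeR adjusted p = 0.000161). For both genes the median granulocyte library was above the median monocyte library, and single libraries overlapped. Irgm1 averaged 626 ± 361 CPM in granulocytes and 299.6 ± 126 CPM in monocytes (SD, n = 9 each; log2 fold change 1.19 ± 0.23). Gbp7 averaged 219 ± 118 CPM in granulocytes and 99.998 ± 39.0 CPM in monocytes (1.24 ± 0.26), and Gbp5 43.9 ± 39.2 CPM in granulocytes and 14.3 ± 7.41 CPM in monocytes (1.69 ± 0.40). The adjusted p of these 3 was 3.54e-05, 0.000144 and 0.000557 in that order (edgeR).

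Gbp4, Gbp6 and Iigp1 were lower in granulocytes. Gbp6 had lowest, median and highest levels of 0, 0 and 4.34 CPM in granulocytes, against 2.88, 9.37 and 43.4 CPM in monocytes. Small-stage granulocyte library 3, at 4.34 CPM, stood apart from the other granulocyte libraries. The log2 fold change of Gbp6 was -4.64 ± 0.65 (edgeR adjusted p = 2.07e-07), and it was -8.03 without that library and -5.33 without large-stage granulocyte library 2. Iigp1 had 0, 0.459 and 4.07 CPM in granulocytes, against 0, 3.93 and 59.4 CPM in monocytes, a log2 fold change of -3.07 ± 0.68 (edgeR adjusted p = 0.000262). Every granulocyte library lay below the median monocyte library for Gbp6, and most did for Iigp1. Gbp4 had 0, 0.136 and 4.18 CPM in granulocytes, against 0, 10.8 and 24.2 CPM in monocytes, a log2 fold change of -4.52 ± 0.87 (edgeR adjusted p = 3.75e-05), which became -5.75 without large-stage granulocyte library 1 and -5.34 without small-stage granulocyte library 2.

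The remaining members were less settled. Gbp3 averaged 55.9 ± 68.6 CPM in granulocytes and 112 ± 51.1 CPM in monocytes (SD, n = 9 each), with a log2 fold change of -0.98 ± 0.37 (edgeR adjusted p = 0.028). That call was lost without the doubtful libraries (-0.77, adjusted p = 0.0504) and when small-stage granulocyte library 2, large-stage monocyte library 1 or 2, or large-stage granulocyte library 3 was left out (adjusted p up to 0.078). Without small-stage granulocyte library 4 the value for Gbp3 was -1.58. Gbp9, which also gathers on Toxoplasma vacuoles, averaged 16.5 ± 40.4 CPM in granulocytes and 32.3 ± 22.7 CPM in monocytes and did not pass the test (-1.36 ± 0.79, edgeR adjusted p = 0.151). Its granulocyte libraries had lowest, median and highest levels of 0, 1.26 and 123 CPM, the highest being large-stage library 1. Without that library the log2 fold change of Gbp9 was -3.57 (edgeR adjusted p = 7.74e-05), and without small-stage granulocyte library 3 it was -2.70 (adjusted p = 0.0115).

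**Figure D4:**
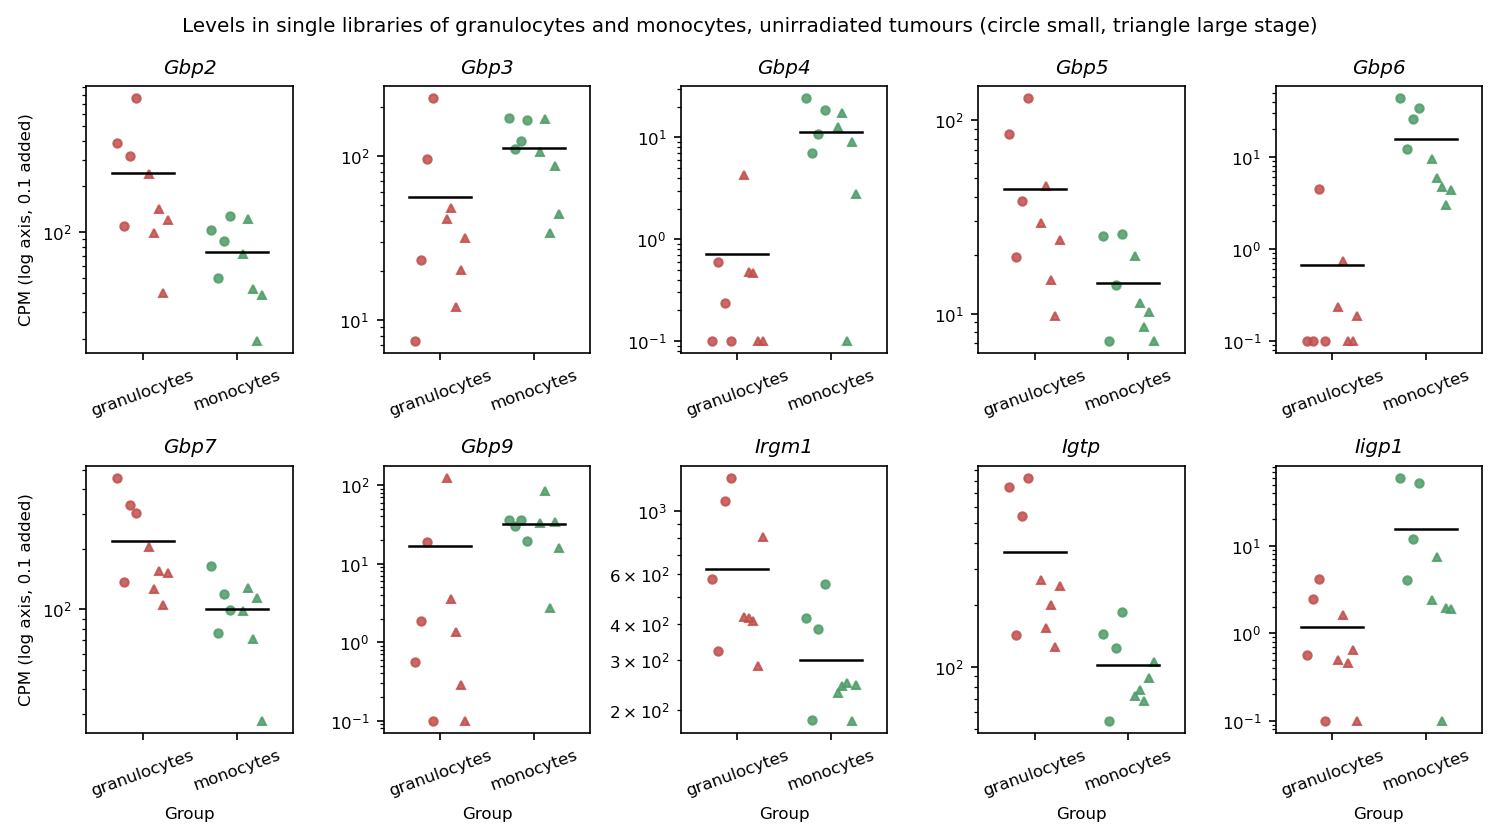
CPM of each gene in single libraries (points, log axis, 0.1 added) of unirradiated tumour granulocytes (n = 9) and monocytes (n = 9). Igtp, Irgm1, Gbp2, Gbp5 and Gbp7 lie mostly higher in granulocytes, Gbp4, Gbp6 and Iigp1 mostly lower, and the ranges of every gene overlap.

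With RLE scaling, where the median of all genes was 0.24, the 5 higher members differed more: the log2 fold change of Igtp was 3.03, of Gbp5 2.79, of Gbp2 2.76, of Gbp7 2.47 and of Irgm1 2.02. Under RLE scaling without the doubtful libraries, small-stage granulocyte library 1 among them, these were 1.94 for Igtp, 1.80 for Gbp5, 1.95 for Gbp2, 1.27 for Gbp7 and 1.43 for Irgm1. All 5 stayed called higher under both. The 7 granulocyte markers summed to 15496 to 36564 CPM in small-stage and 18383 to 25237 CPM in large-stage granulocytes, against 539.8 to 632 and 540.0 to 1136 CPM in small- and large-stage monocytes. The 7 monocyte markers, all with counts in each group, summed to 1869.6 to 4389 and 2151 to 3133 CPM in small- and large-stage granulocytes, against 5183 to 6886 and 5108 to 9983 CPM in the monocytes. Markers of NK cells summed to at most 3.86 CPM in granulocytes, with Ncr1 at 0 in all small-stage libraries, and to 77.5 to 169 and 36.4 to 64.1 CPM in small- and large-stage monocytes. The part of other cells in these results was not tested.

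Calls in the surrounding pathway also went both ways, where 50.8% of all genes were called, 22.0% higher and 28.8% lower. With shares this high, the list counts by themselves say little of the pathway. Of 26 type I interferon targets, 14 were higher in granulocytes and 6 lower. The antiviral GTPase Mx1 averaged 3.04 ± 2.59 CPM in granulocytes and 188 ± 102 CPM in monocytes (SD, n = 9 each; log2 fold change -5.78 ± 0.44, edgeR adjusted p = 2.80e-13), while Ifit3b averaged 689 ± 536 CPM in granulocytes and 49.5 ± 44.0 CPM in monocytes (4.08 ± 0.31). Of 23 interferon gamma targets, 6 were higher and 10 lower, with the class II chaperone Cd74 at -4.35 ± 0.42 and the class II chain H2-Aa at -3.29 ± 0.38. Irf1 was higher in granulocytes (1.80 ± 0.26) and Irf8 lower (-3.55 ± 0.45). Of the interferon gamma receptor chains, Ifngr1 was lower in granulocytes (-0.80 ± 0.16) and Ifngr2 was at 0.54 ± 0.22 (edgeR adjusted p = 0.043). Feedback inhibitors were called higher in 5 of 7, among them Socs1 (3.44 ± 0.48), and autophagy conjugation genes in 7 of 10, among them Atg3 (2.19 ± 0.15), each with 0 lower. Of 18 further GBP and IRG genes tested, 5 were higher and 4 lower, and Irgm2, the third regulatory IRG, was at 2.04 ± 0.52.

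BMDM and microglia of unirradiated tumours differed in 12.3% of all genes, and 0 of the 10 members passed the test (unadjusted p under 0.05 in 2, as in 23.5% of all genes; DESeq2 called 0). Gbp3 averaged 82.4 ± 23.5 CPM in BMDM and 50.6 ± 13.1 CPM in microglia (SD, n = 10 each; log2 fold change 0.72 ± 0.35, edgeR adjusted p = 0.202), and Gbp7 averaged 80.7 ± 25.8 CPM in BMDM and 120.1 ± 26.0 CPM in microglia (-0.56 ± 0.24, adjusted p = 0.141). These were the 2 under an unadjusted 0.05, and both passed when the 4 groups compared were fitted alone. Irgm1 averaged 214 ± 51.3 CPM in BMDM and 194 ± 40.5 CPM in microglia, with a 95% interval of the log2 fold change of -0.29 to 0.57. In the same comparison 10 of 23 interferon gamma targets were higher in BMDM and 0 lower, led by class II genes such as H2-Eb1 (5.004 ± 0.43) and H2-Aa (4.28 ± 0.37), with their activator Ciita at 5.09 ± 0.75. Over all genes 1538 were higher and 654 lower by TMM, and 1323 higher and 1020 lower by RLE. The 8 dendritic cell markers summed to 1634 to 2712 and 452 to 1971 CPM in small- and large-stage BMDM, against 64.5 to 201 and 92.3 to 178 CPM in small- and large-stage microglia. The 9 NK markers summed to 121 to 538 and 20.7 to 214 CPM in BMDM, against 4.34 to 24.4 and 1.00 to 10.1 CPM in microglia. The part of these cells was not tested.

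BMDM and monocytes differed in 8.85% of all genes, and again in 0 of the 10 members (unadjusted p under 0.05 in 3, Gbp6, Irgm1 and Igtp, and in 20.9% of all genes; DESeq2 called Gbp6). Gbp6 averaged 5.29 ± 3.98 CPM in BMDM (SD, n = 10) and 15.7 ± 14.8 CPM in monocytes (SD, n = 9), with a log2 fold change of -1.49 ± 0.52 (edgeR adjusted p = 0.0652; DESeq2 adjusted p = 0.024). The median log2 fold change of the 10 was -0.49, beside 0.06 over all genes. Of the 26 type I interferon targets 14 were lower in BMDM and 0 higher, among them the antiviral synthetase Oas3 (-1.72 ± 0.31). By RLE 0 members were called, with 1298 genes higher and 358 lower over all (965 and 612 by TMM). Dendritic cell markers were lower in sum in monocytes, at 197 to 304 and 74.3 to 331 CPM at the small and the large stage, and their part was not tested.

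Tumour monocytes were compared with blood monocytes of tumour-free mice, where 55.3% of all genes were called and the median of all genes was -1.182. None of the 10 members passed, 0 had an unadjusted p under 0.05 (59.4% of all genes did), and DESeq2 called 1 (Gbp4). Blood monocyte levels were uneven: Irgm1 was at 52.6, 102, 118 and 591 CPM and Gbp2 at 19.96, 23.0, 63.5 and 330.4 CPM in the 4 libraries, against 184, 245 and 552 CPM for Irgm1 and 19.2, 72.2 and 129 CPM for Gbp2 as lowest, median and highest of the 9 tumour monocyte libraries. Blood library 4 was far above the other 3, which are all doubtful. Without library 4, Irgm1 was called higher in tumour monocytes (1.67, edgeR adjusted p = 5.88e-05), as were Igtp (1.73) and Gbp6 (1.87). Without the doubtful libraries the blood side is library 4 alone, whose spread is then assumed to be like that of the other groups, and the log2 fold changes were -2.15 for Gbp2, -0.97 for Irgm1 and -1.29 for Igtp, so the direction rests on which blood libraries are used. Markers of NK cells, a source of interferon gamma, summed to 77.5 to 169 and 36.4 to 64.1 CPM in small- and large-stage tumour monocytes, against 293 to 5019 CPM in blood monocytes, where Ifng averaged 6.77 ± 7.35 CPM (SD, n = 4). Their part in the result was not tested.

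Log2 fold changes of large-stage over small-stage tumours were below 0 for most members in each population, but none passed the test. The median of the 10 was -0.26 in microglia, -0.32 in BMDM and -0.65 in monocytes. The medians over all genes were -0.09, 0.04 and -0.01 in the same order. In microglia 0 of 10 were called (0% of all genes were), 2 had an unadjusted p under 0.05 (12.4% of all genes) and 1 fold change was above 0. In BMDM 0 were called (0% of all genes), with 2 at an unadjusted p under 0.05 (6.02%), and in monocytes 0 (0% of all genes), also with 2 (4.31%). DESeq2 called 0 in microglia, 0 in BMDM and 1 in monocytes. Gbp6, chosen for display after its values were seen, was at 5.32, 2.84, 3.09, 1.70 and 4.69 CPM in large-stage and 13.7, 3.18, 10.9, 8.21 and 8.34 CPM in small-stage microglia, with overlap. In BMDM it was at 2.23, 3.14, 2.50, 1.14 and 3.61 CPM at the large and 9.12, 7.20, 4.19, 14.3 and 5.47 CPM at the small stage, and in monocytes at 9.37, 5.81, 4.61, 2.88 and 4.27 CPM at the large and 43.4, 12.1, 25.4 and 33.8 CPM at the small stage. In BMDM and in monocytes every large-stage library was below every small-stage one, and Gbp6 was the 1 member without overlap in each, where 0.781% of all genes in BMDM and 0.759% in monocytes had ranges that did not overlap. The log2 fold change of Gbp6 was -1.38 ± 0.62 in microglia, -1.58 ± 0.43 in BMDM and -2.38 ± 0.58 in monocytes, with edgeR adjusted p of 0.375, 0.734 and 0.469 and, in monocytes, a DESeq2 adjusted p of 0.0367.

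Markers of other cells also varied over these libraries. Dendritic cell markers summed to 452 to 1971 CPM in large-stage and 1634 to 2712 CPM in small-stage BMDM, and to 74.3 to 331 CPM in large-stage and 197 to 304 CPM in small-stage monocytes. NK markers summed to 20.7 to 214 CPM in large-stage and 121 to 538 CPM in small-stage BMDM, and to 36.4 to 64.1 CPM in large-stage and 77.5 to 169 CPM in small-stage monocytes. Ifng averaged 0.0865 ± 0.194 CPM in large-stage and 1.76 ± 2.41 CPM in small-stage BMDM (SD, n = 5 each), and 0.0557 ± 0.125 CPM in large-stage (SD, n = 5) and 1.46 ± 2.55 CPM in small-stage monocytes (SD, n = 4). Their part in the stage differences was not tested.

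Iigp1 in monocytes was at 2.32, 7.41, 0, 1.86 and 1.80 CPM at the large and 59.4, 3.93, 11.8 and 51.5 CPM at the small stage, with overlap, and a log2 fold change of -3.53 ± 0.93 (edgeR adjusted p = 0.469). Without the filter on low counts Gbp6 and Iigp1 were both called lower in large-stage monocytes. In granulocytes 9 members were tested, since Gbp4 had too few counts, and 0 were called (0.0141% of all genes), although 6 had an unadjusted p under 0.05 (8.80% of all genes did) and the median log2 fold change was -1.63, beside 0.20 over all genes. Igtp was at 263, 154, 199, 125 and 246 CPM in large-stage and 751, 143, 539 and 828 CPM in small-stage granulocytes, and the groups overlap. Its log2 fold change was -1.79 ± 0.49 (edgeR adjusted p = 0.0909). It was called without small-stage library 2 (-2.12, adjusted p = 0.0145) or 3 (-1.92, adjusted p = 0.0486), and Gbp2 without small-stage library 2 (-2.16, adjusted p = 0.036). With RLE scaling 5 members were called lower, with 14 genes higher and 1639 lower over all. DESeq2 called 6 and RLE scaling without the doubtful libraries 0.

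With the filter on low counts, none of the 10 genes passed the test in any population after whole-brain radiotherapy. Over 16 comparisons of irradiated with unirradiated cells (small and large stages weighted equally), 156 tests of members gave 0 calls. The smallest adjusted p was 0.519 (edgeR), and DESeq2 gave 0 calls. An unadjusted p under 0.05 was found in 20 of the 156. Over all genes its share ran from 1.81% in microglia on day 3 after 5x2 Gy to 9.34% in BMDM after 1x10 Gy. Without the filter on low counts 3 tests passed: Igtp (0.99, edgeR adjusted p = 0.0482) and Iigp1 (1.64, adjusted p = 0.0156) in day 5 monocytes and Gbp9 (-4.45, adjusted p = 0.00508) in day 5 granulocytes, all after 5x2 Gy. Of all genes, 0.0607% were called in microglia on day 3, 0.0354% on day 5 and 0.00506% on day 10 after 5x2 Gy and 0.101% after 1x10 Gy. In BMDM 0.00630% were called after 1x10 Gy, and 0% in the other 3 BMDM comparisons and in the 8 of monocytes and granulocytes. Fold changes were above 0 in 110 tests and below in 46, as 18 and 22 in microglia, 33 and 7 in BMDM, 36 and 4 in monocytes, and 23 and 13 in granulocytes. The 4 comparisons of a population share its unirradiated libraries, so these counts are not independent. The sign can also depend on the stage taken as reference. Mean Gbp6 was 28.7 CPM in small-stage and 5.39 CPM in large-stage monocytes, and 14.5 to 21.1 CPM in irradiated ones. Mean Iigp1 was 31.7, 2.68 and 11.3 to 28.9 CPM in the same order. Mean Igtp, at 127, 81.9 and 133 to 201.5 CPM, was higher in irradiated monocytes than at either stage. The median log2 fold change over all genes ran from -0.21 to 0.07 in the 16 comparisons. No gene of the other interferon lists passed the test in any of them.

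In microglia Gbp2 averaged 43.5 ± 18.05 CPM in unirradiated tumours (SD, n = 10), 40.9 ± 12.8 CPM on day 3 (n = 4), 41.3 ± 13.1 CPM on day 5 (n = 4) and 61.9 ± 6.35 CPM on day 10 (n = 3) after 5x2 Gy, and 47.2 ± 10.8 CPM on day 3 after 1x10 Gy (n = 3). Irgm1 averaged 194 ± 40.5 CPM in the unirradiated group and 179 ± 22.8, 183 ± 29.4 and 277 ± 23.2 CPM on days 3, 5 and 10. On day 10 the 3 libraries of Gbp3, at 88.0, 78.5 and 74.9 CPM, and of Irgm1, at 253, 299 and 279 CPM, lay above all 10 unirradiated ones, in Gbp3 by less than the digits show. Among all genes in this comparison 1.46% had ranges that did not overlap. The unirradiated lowest, median and highest were 39.0, 46.7 and 74.9 CPM for Gbp3 and 117, 198 and 241 CPM for Irgm1. Their log2 fold changes were 0.66 ± 0.28 and 0.51 ± 0.23, and neither passed the adjustment (edgeR adjusted p = 0.909 for both). Gbp4 on day 5, with -1.55 ± 0.77, was the lowest fold change among microglia.

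Monocytes on day 5 after 5x2 Gy had the most members at an unadjusted p under 0.05, 5 of 10, where 8.01% of all genes had one. Igtp was at 213, 155, 286 and 153 CPM there, against 54.5, 88.1 and 185 CPM as lowest, median and highest in the 9 unirradiated libraries. The groups overlap, and the log2 fold change was 0.99 ± 0.40 (95% interval 0.17 to 1.80, edgeR adjusted p = 0.531). Iigp1 was at 35.3, 26.7, 50.2 and 3.33 CPM on day 5, against 0, 3.93 and 59.4 CPM in the unirradiated libraries, with a log2 fold change of 1.65 ± 0.74 (edgeR adjusted p = 0.589). The median of the 10 was 0.82, beside -0.12 over all genes. In BMDM on day 5 Gbp6 averaged 10.1 ± 4.86 CPM (SD, n = 4), against 5.29 ± 3.98 CPM in unirradiated BMDM (SD, n = 10; log2 fold change 1.11 ± 0.37, edgeR adjusted p = 0.563). Gbp7 was the 1 member with all 16 fitted fold changes above 0, from 0.02 to 0.91. In microglia, BMDM and monocytes its 95% intervals ran from -0.58 to 1.63, and those of Irgm1 from -0.60 to 1.54.

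**Figure D5:**
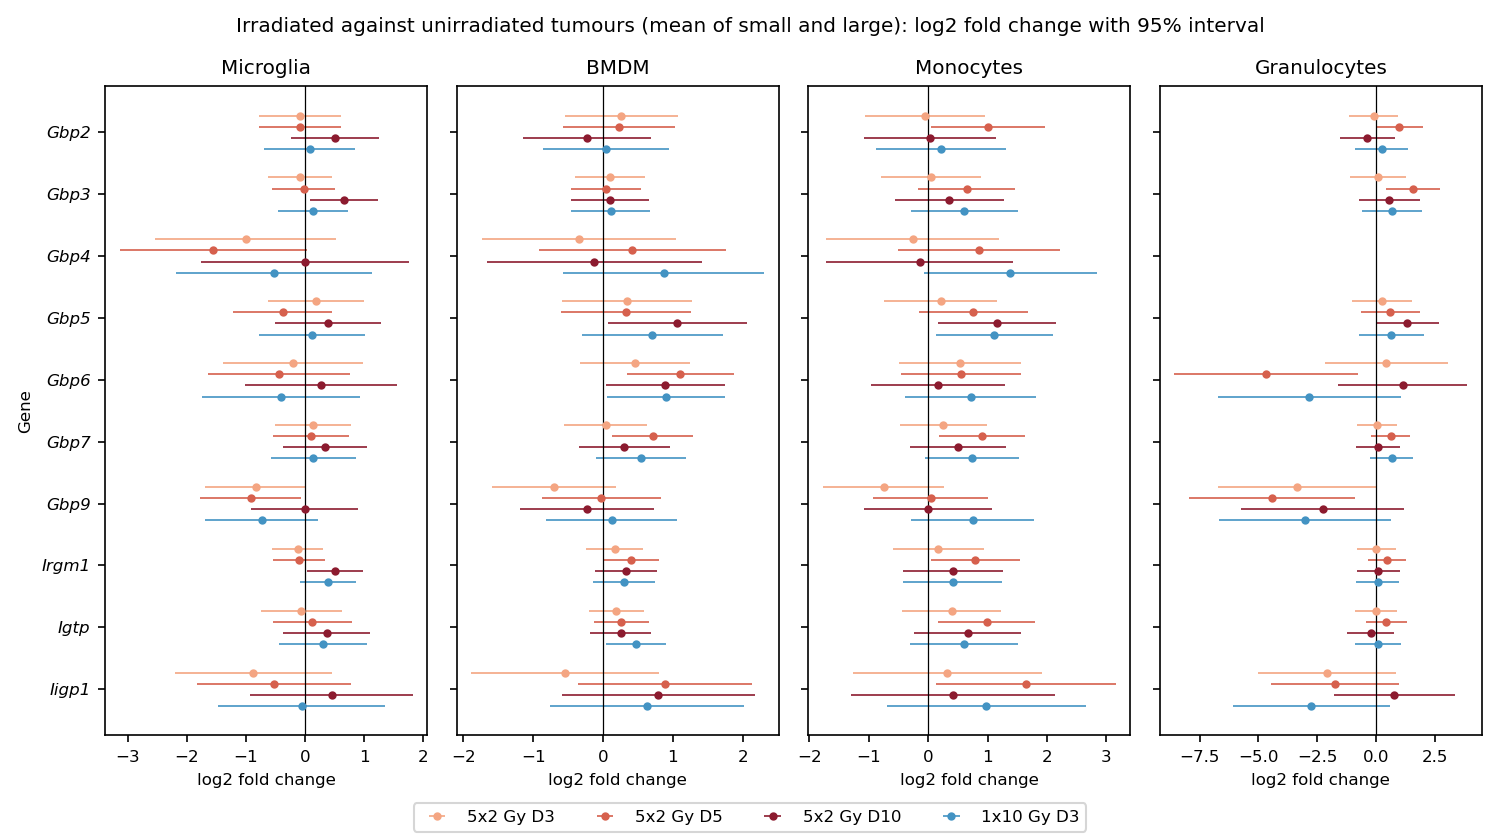
Log2 fold change of each gene in irradiated over unirradiated cells with its 95% interval, for 4 populations and 4 treatments. Unirradiated cells are the small and large stages weighted equally, and the vertical line marks no difference. Values in monocytes and BMDM lie mostly to the right of the line, those in microglia on both sides, and none passed the test after adjustment.

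The 2 schedules were compared in microglia on day 3, where 0 of 10 members differed between 1x10 Gy and 5x2 Gy (0% of all genes were called; 0 members at an unadjusted p under 0.05, and 0 by DESeq2). Irgm1 was at 223, 345 and 223 CPM after 1x10 Gy and at 183, 203, 181 and 148 CPM after 5x2 Gy. These ranges did not overlap (12.6% of all genes had ranges that did not), and the log2 fold change was 0.52 ± 0.27 (edgeR adjusted p = 0.751). Whether microglia and BMDM responded differently was tested as an interaction for each of the 4 treatments. By edgeR 0 of 40 tests of members passed (0% of all genes did in each), and 0 by DESeq2. An unadjusted p under 0.05 was found in 1 member test, and in 1.13% to 5.12% of all genes over the 4 treatments. The lowest and highest bounds of the 95% intervals were -3.98 and 2.31.

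Across the 28 groups the members fell into 2 sets by their mean log2(CPM + 0.5). Within Gbp2, Gbp5, Gbp7, Irgm1 and Igtp the pairwise Pearson r was 0.81 to 0.96, within Gbp4, Gbp6, Gbp9 and Iigp1 it was 0.79 to 0.93, and between the sets it was -0.55 to 0.00. Gbp3 stood between them, with r of 0.38 to 0.63 to the first set and 0.39 to 0.66 to the second. These sets were formed after the values were seen. Their division rests on the granulocyte groups: over the 22 groups without them, r between the sets was 0.31 to 0.95. The 18 tumour groups outside granulocytes gave 0.11 to 0.86. The sets also differ in place, as the chromosome 5 genes Gbp4, Gbp6 and Gbp9 all fall in the second and Gbp2, Gbp5 and Gbp7 of chromosome 3 in the first, with Gbp3 of the same cluster in neither. Groups share libraries' depth, sort and scaling, and such correlations are descriptions over group means.

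Outside the family, the genes whose profile over the 28 groups was most like the mean profile of the 10 were Dhx58 (r = 0.942), a regulator of RNA sensing, Zbp1 (0.924), Ifit2 (0.898), Xaf1 (0.893) and Slfn9 (0.889). Of single members, Irgm1 was most like Dtx3l (0.987), Gbp2 like the antiviral enzyme Rsad2 (0.970), Gbp6 like Mx1 (0.955) and Gbp3 like Dhx58 (0.916). Gbp9 was most like Adgrg5 (0.961), Gbp4 like Gbp9 (0.932) and, outside the family, Calhm6 (0.926), Iigp1 like E2f1 (0.917), Gbp5 like Gbp2b (0.911) and, outside the family, Herc6 (0.863), and Gbp7 like Trim34b (0.902). Ifit2, Zbp1 and Rsad2 belong to the type I interferon targets counted above.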

How the data were processed

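The deposited table holds raw whole-number counts per gene, which the authors made, per the submitters' processing notes, with FastQC, TopHat2 2.0.14 and HTSeq on GRCm38; DESeq2 1.18.1 is also named there. Per the labels' protocols, cells were sorted by FACS and total RNA was extracted with Trizol LS. Read length, strand setting and the treatment of reads shared by paralogs were not given in the sources used here. Columns were matched to samples by title, with 0 unmapped columns. Of 49585 gene IDs, 49326 matched GENCODE M21, all 10 members included, and 233 genes without a symbol were kept in library sizes and fits. Depth was 985423 to 18642747 counts per library, which limits the precision of genes with few counts.

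Counts were tested with edgeR 4.0.16 (limma 3.58.1, R 4.3.3): genes passing filterByExpr (minimum count 10, minimum total 15), TMM factors, 1 mean per group, all libraries of a population fitted together, the quasi-likelihood test and Benjamini-Hochberg adjustment over all genes tested, with a threshold of 0.05. Populations were compared in a fit of the unirradiated groups, and interactions in a fit of microglia and BMDM. Standard errors are the fold change over the square root of F, with 95% intervals. Alternatives were RLE factors, no filter, DESeq2 1.42.0 (Wald), a replicate block, the compared groups alone, either stage alone in place of both in the radiotherapy comparisons, and fits without single or doubtful libraries. Chosen after seeing the data were RLE scaling without the doubtful libraries and exon length shared with no other gene. Simulated data were drawn from the main fits, with known changes set only in genes of mean 10 CPM or more. The first used all microglia libraries (18381 genes) and changed the small-stage ones. Against tumour-free microglia, 34 of 100 genes changed 2-fold and 88 of 100 changed 4-fold were recovered, with 3 false calls. For microglia on day 3 after 5x2 Gy against unirradiated ones these were 47 and 95, with 7 false calls. For granulocytes against monocytes they were 27 and 89, with 2. These rates do not cover genes at lower levels. Mean Gbp4 and Gbp6 were under 10 CPM in every microglia and every granulocyte group, and mean Iigp1 was 0.549 CPM in tumour-free microglia. Figures were drawn with Python 3.11.15, pandas 2.3.3, numpy 2.4.6 and matplotlib 3.10.9.

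The members and gene lists were chosen with earlier results of these data known. Named were all 10 members, Ifng, its receptors, Irf1 and Irf8, up to 4 genes per list and comparison, those lowest in adjusted p, the 5 genes outside the family most like the members' mean profile and the gene most like each member; 2 genes that the rule names are not reported here. Promoter sequences are from RefSeq (GRCm38.p6) and exon lengths from GENCODE M21.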

Additional observations from a re-analysis of the deposited data

Results flagged for a closer look

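Among 179 tests of a gene in a group of 4 or 5 libraries, 13 had 1 library far from the others (7.26%). The limits used give about 1 in 20 for normally spread values. That rate does not hold where all other libraries of a group are at 0, since any count then stands apart. The tests also share libraries, so the 2 rates cannot be compared. Several lie in genes close to 0 in granulocytes. Gbp6 was at 4.34 CPM in small-stage granulocyte library 3 and 0 in the other 3, at 0.636 CPM in large-stage granulocyte library 2, and at 1.92 CPM in 5x2 Gy day 3 granulocyte library 1. Gbp4 was at 4.18 CPM in large-stage granulocyte library 1, with the others at 0 to 0.381 CPM, and at 0.479 CPM in 5x2 Gy day 3 granulocyte library 1. Iigp1 was at 0.745 CPM in 5x2 Gy day 3 granulocyte library 2, with the others at 0.

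In macrophage populations the single libraries were mostly low. Iigp1 was at 0.064 CPM in 5x2 Gy day 3 BMDM library 4, with the others at 9.87 to 14.2 CPM, and libraries numbered 4 of the same treatment were also low for Iigp1 in microglia, at 0.313 CPM, and in monocytes, at 0.550 CPM. In that BMDM library Gbp7 was at 56.9 CPM, with the others at 92.6 to 101 CPM. Iigp1 was at 14.1 CPM in 5x2 Gy day 5 BMDM library 1, with the others at 25.6 to 28.1 CPM. In tumour-free microglia Gbp7 was at 5.48 CPM in library 3, a doubtful library, with the others at 62.3 to 83.5 CPM, and Gbp6 was at 0.344 CPM in library 2, also doubtful. Gbp4 was at 3.48 CPM in 5x2 Gy day 5 monocyte library 4, with the others at 22.0 to 28.9 CPM. Irgm1 was at 184 CPM in large-stage monocyte library 4, with the others at 230 to 249.8 CPM.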

How the results depend on the processing

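No called member changed sign under any alternative. Of members called only under some alternative, Iigp1 in 5x2 Gy day 5 monocytes was at -0.12 against the small stage alone. In tumour against blood monocytes, Gbp6, Irgm1 and Igtp turned to -0.24, -0.97 and -1.29 without the doubtful libraries, which leaves 1 blood library whose spread is assumed to be like that of the other groups. There Gbp2 turned to 1.002 without blood library 4, Irgm1 was at -0.0019 without library 1 and 1.67 without library 4, and Igtp ran from -0.17 without library 1 to 1.73 without library 4, also below 0 without library 2 or 3. Of the counts of called members most stayed within 1.5 times the main count. The exceptions were these. Large-stage against tumour-free microglia had 4 called members without the doubtful libraries. DESeq2 called 1 in tumour-free microglia titled 5x2 day 5, 1 in large- against small-stage monocytes, 6 in large- against small-stage granulocytes, 1 in tumour against blood monocytes and 1 in BMDM against monocytes. RLE scaling called 5 in large- against small-stage granulocytes and 1 in tumour against blood monocytes, and moved mean Igtp in small-stage granulocytes to 2602 CPM, while without the doubtful libraries RLE called 0 in the granulocyte stages. Without the filter on low counts 2 were called in large- against small-stage monocytes, 2 in 5x2 Gy day 5 monocytes, 2 in large- against small-stage granulocytes, 1 in 5x2 Gy day 5 granulocytes and 2 in tumour against blood monocytes, the last of which had 1 without the doubtful libraries, with that 1 blood library. Fitting the compared groups alone called 2 in BMDM against microglia and 2 in BMDM against monocytes. The cause was not tested. Leaving out 1 library at a time gave 6 to 8 called in small-stage and 5 to 8 in large-stage against tumour-free microglia, 0 to 1 in each titled 5x2 comparison, 0 to 2 in the granulocyte stages, 0 to 3 in tumour against blood monocytes, 8 to 10 in granulocytes against monocytes and 0 in the other 26.

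Replicate numbers occur in every group, but not every same-numbered pair correlated above 0.1 (BMDM with microglia -0.34 to 0.66, 18 of 24 pairs over 0.1 and 19 best with their own number; BMDM with monocytes -0.06 to 0.70, 21 of 23 and 21; granulocytes with monocytes -0.05 to 0.50, 18 of 23 and 17). These values are a hint from the data, not from the design, and the numbers were not taken as pairs. The main tests between populations treated same-numbered libraries as independent, which they may not be. With the replicate block the called members stayed at 6 and 7 in small- and large-stage microglia and became 10 in granulocytes against monocytes, where Gbp9 was at -2.94 (edgeR adjusted p = 0.00719). Genes of few counts, such as Gbp6 and Iigp1 in tumour-free microglia and Gbp4 in granulocytes, are limited by depth.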
